A study of Mus musculus with 289 samples.

Results

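Interferon-induced antiviral genes were followed across single cortical astrocytes of adult mice. The set held 35 genes chosen by name, of 55487 gene rows in the widest count table: 4 transcription factors, 7 sensors of viral RNA and DNA, 14 restriction factors and effectors, 4 genes of the ISG15 and ubiquitin pathway, and 6 guanylate-binding proteins and immunity-related GTPases. All 35 had a row in batches 1 to 4. In batch 5 there were 34, since Ifi44 had no row there.

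Interferons are secreted signals of infection and tissue injury. Type I interferons bind the receptor pair Ifnar1 and Ifnar2, whose kinases Jak1 and Tyk2 act on factors that include Stat2, which joins Irf9 in a complex that binds the interferon-stimulated response element of target promoters. Interferon gamma binds Ifngr1 and Ifngr2 and acts in part through Irf1, and it drives guanylate-binding proteins and immunity-related GTPases strongly. Astrocytes carry both receptor kinds, and interferon-induced genes are a known feature of astrocytes in infected and inflamed brain.

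Each library was 1 cell drawn into an electrophysiology pipette and made by Smart-seq2, a full-length method without molecular identifiers. The mice were Cas9 animals injected with a lentivirus built to act in astrocytes (Mok-LV) carrying a control guide RNA (gRNA), or gRNAs to Sox9, to Trps1 or to the pair (dual gRNA). No gRNA cells and in-slice controls (pipette lowered into tissue, no cell aspirated) were also labelled. Whether the animals of the no gRNA cells received virus, and the promoter driving Cas9, are not stated in the labels. Batch 1 held 31 no gRNA, 10 control gRNA and 4 dual gRNA cells. Batch 2 held 8 control gRNA cells of day 7, 7 control gRNA cells of day 21, 8 dual gRNA cells also of day 21, and 1 in-slice control. Batch 3 held 6 no gRNA cells, 14 dual gRNA cells and 21 Sox9 gRNA cells, both of day 7, and 4 in-slice controls. In batch 4 there were 15 control gRNA cells of day 21, 13 with dual gRNA and 16 with Sox9 gRNA of that day, 15 Trps1 gRNA cells of day 7 and 2 in-slice controls. Batch 5 held 23 no gRNA cells, 30 Trps1 gRNA cells and 21 Sox9 gRNA cells, both of day 21, and 5 in-slice controls. In batch 1 the day labels ran on from cell to cell, from 8 to 16 in control gRNA and 17 to 20 in dual gRNA cells, and were not used. In-slice controls were labelled day 7 in batches 2 and 3 and day 21 in batches 4 and 5. No gRNA cells had no day label.

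Promoter windows show what many of these genes share. RefSeq windows (build GRCm38.p6, 300 bases each, most of them before the gene's start) were at hand for 27 of the 35 members, 31 windows in all. Oas2, Mx2, Usp18, Ifi27, Zbp1, Iigp1, Parp14 and Rtp4 were not in that table. The core of the interferon-stimulated response element, which is GAAA, any 2 bases and GAAA again on either strand, was found in 16 of the 31 windows (51.6%), and in 3.44% of all 32851 windows. The STAT site TTCNNNGAA, which reads the same on both strands and can overlap the first motif, was found in 9 of the 31 (29%) and in 8.3% of all windows. The 4 sequences below belong to the members with the response element that were called most often in the comparisons below, and run from 120 bases before the start to 30 after it, with each match to the response element core in capitals and STAT sites left in lower case.
Ifitm3 (chr7:141010715-141010864, minus strand): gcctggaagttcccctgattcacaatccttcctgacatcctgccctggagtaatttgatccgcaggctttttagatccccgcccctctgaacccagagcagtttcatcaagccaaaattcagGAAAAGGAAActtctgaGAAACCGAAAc
Irgm1 (chr11:48871391-48871540, minus strand): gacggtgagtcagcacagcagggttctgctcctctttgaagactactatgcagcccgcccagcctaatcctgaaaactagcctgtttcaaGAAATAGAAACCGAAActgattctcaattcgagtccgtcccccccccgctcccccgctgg
Igtp (chr11:58199436-58199585, plus strand): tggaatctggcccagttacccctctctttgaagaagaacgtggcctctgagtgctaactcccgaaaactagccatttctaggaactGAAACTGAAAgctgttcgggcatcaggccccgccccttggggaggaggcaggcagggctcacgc
Gbp3 (chr3:142559924-142560073, plus strand): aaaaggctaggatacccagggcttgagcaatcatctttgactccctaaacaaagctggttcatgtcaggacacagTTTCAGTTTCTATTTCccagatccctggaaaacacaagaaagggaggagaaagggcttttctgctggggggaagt
In Ifitm3 the matches lie 2 and 19 bases past the start, in the transcribed part. In Irgm1 the matches overlap and begin 30 and 24 bases before the start, in Igtp 1 match begins 34 bases before it, and in Gbp3 overlapping matches on the opposite strand begin 45 and 39 bases before it. These starts are those of the RefSeq windows. In the GENCODE M21 annotation Irgm1 (minus strand) starts at 48871683, so its matches lie inside the gene there. A match describes the letters and shows no binding. By the GENCODE M21 annotation of GRCm38, 7 of the 35 genes lie on chromosome 11 and 4 on chromosome 3, where Gbp2 (142620602 to 142638008), Gbp3 (142560026 to 142573209) and Gbp7 (142530342 to 142550149) are neighbours on the plus strand.

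The astrocyte libraries held 15959 to 4656612 reads in genes (median 1094500), and the in-slice controls 341394 to 2299609. Summed astrocyte markers were 2353 to 34306 CPM (reads of a gene per 1e6 reads in genes) in the pooled astrocyte groups and 329 to 1518 CPM in pooled in-slice controls. Single libraries overlapped: cells went down to 5.49 CPM (dual gRNA, batch 4) and in-slice libraries up to 3245 CPM (batch 5). Under 1000 CPM lay 5 of 13 dual gRNA cells of batch 4, 4 of 21 Sox9 gRNA cells of batch 3 and 4 of 15 Trps1 gRNA cells of batch 4. Of no gRNA cells, 1 of 31 in batch 1 and 0 in batches 3 and 5 did. Reads of the targeted genes were not lower under their own guides throughout. Sox9 was at 1303 CPM in Sox9 gRNA against 382 CPM in no gRNA cells of batch 3, 189 against 177 CPM in control cells of batch 4 and 233 against 309 CPM in no gRNA cells of batch 5. Trps1 was at 57.6 CPM in Trps1 gRNA against 91.9 CPM in no gRNA cells of batch 5. In dual gRNA cells of batches 1, 2 and 4, Sox9 was at 1860, 905 and 133 CPM against 209, 491 and 177 CPM in control gRNA cells (day 21 in batches 2 and 4). Trps1 there was at 112, 19.4 and 16.7 CPM against 4.61, 107 and 3.35 CPM. In batch 3 Sox9 and Trps1 were at 1492 and 294 CPM with dual gRNA and 382 and 109 CPM without gRNA. Small deletions made by Cas9 need not remove reads, so these counts check the guide names poorly, and guide names below are labels only. The labels name no animal, so cells are not replicates: all cells of a group in 1 batch form a pool, each value describes these libraries, and no test was possible. Microglia and macrophage markers moved with the guide labels. Their sum was 239 to 353 CPM in the 3 no gRNA pools and 5735 to 14244 CPM in the 13 astrocyte pools with a guide label, and its part in the results was not tested.

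The number of members with a read was counted in each cell. In batch 1, 10 control gRNA cells had reads of 5 to 25 members (median 15.5) and 31 no gRNA cells of 0 to 8 (median 2), so that 9 of the 10 lay above the highest no gRNA cell. The 4 dual gRNA cells of that batch had 7 to 14 members (median 10.5). In batch 3 the median was 2 members in no gRNA cells (0 to 7), 9 in Sox9 gRNA cells (1 to 28) and 6 in dual gRNA cells (2 to 14). These counts differ in depth, with median reads of 236508 in no gRNA, 1444750 in Sox9 gRNA and 1605840 in dual gRNA cells. In batch 5 the medians were 2 in no gRNA cells (0 to 7), 5 in Sox9 gRNA cells (0 to 10) and 4 in Trps1 gRNA cells (0 to 12), and the groups overlapped widely. With each cell of batch 1 thinned to 200000 reads, the expected median was 13.4 members in control gRNA and 1.15 in no gRNA cells. The same median in batch 5 was 4.0 in Sox9 gRNA, 3.30 in Trps1 gRNA and 1.32 in no gRNA cells, with 1 Trps1 gRNA and 1 no gRNA cell too shallow to thin. In batch 3 it was 5.41 in the 3 of 6 no gRNA cells deep enough to thin, 7.54 in 20 Sox9 gRNA cells and 5.10 in 14 dual gRNA cells, so that dual gRNA cells did not exceed no gRNA cells at equal depth. In-slice controls, the background of the method, gave reads of 1 to 6 members.

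**Figure D1:**
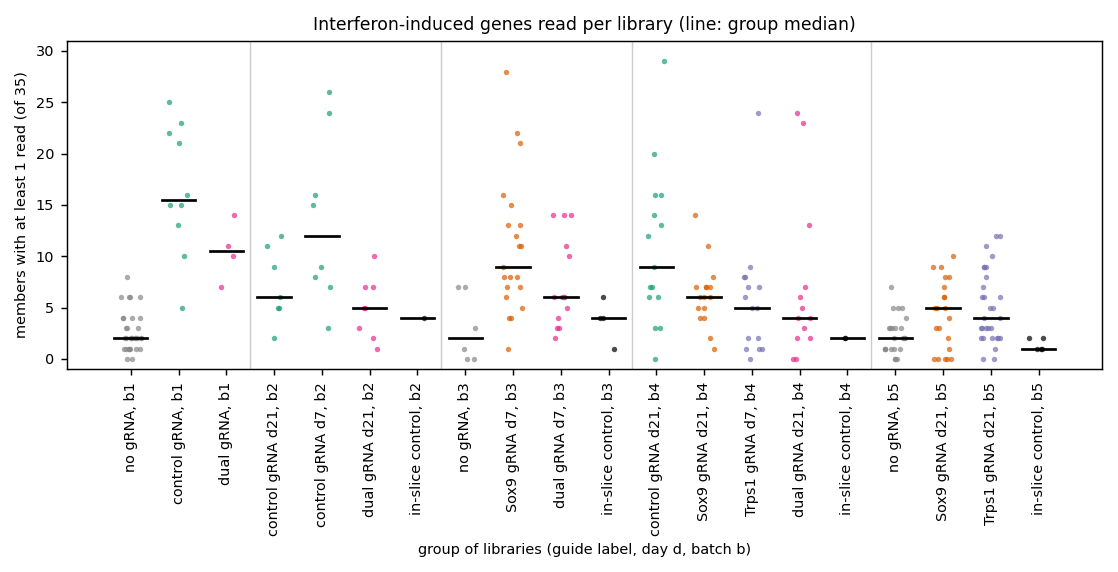
Each point is 1 library, the vertical axis counts members with at least 1 read, and lines are group medians; guide label, day (d) and batch (b) are on the horizontal axis. Control gRNA cells of batch 1 (5 to 25 members) stand above no gRNA cells (0 to 8), while the groups of batch 5 overlap.

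Within a pool the members were patchy. Many members had a per-cell median of 0 and a few cells at high CPM, and 1 cell held 15.1% (Sox9 gRNA, batch 3) to 69.1% (no gRNA, batch 3) of a pool's member reads. Levels are given as pooled CPM, the number of cells with a read and the per-cell lowest, median and highest CPM. CPM is not scaled by gene length, so levels of different genes are not ranked against each other. A member called higher or lower between pools had a log2 ratio of CPM + 5 of at least 1 in size, both with all cells and with each pool's highest cell for that gene removed, and a mean of at least 5 CPM. The ratio is drawn towards 0 for low genes, and against a pool with no read it is no bound. There, "at least" folds use a limit of 3 counts in that pool. That limit treats reads as independent and leaves out the spread between cells, so such folds describe these libraries only. Near-identical or clustered relatives (Ifit3 and Ifit3b, Oas1a and Oas1g, the guanylate-binding proteins) could share reads, and their split is uncertain, as is that of overlapping or antisense genes, because no source used here states how strand was handled.

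**Figure D2:**
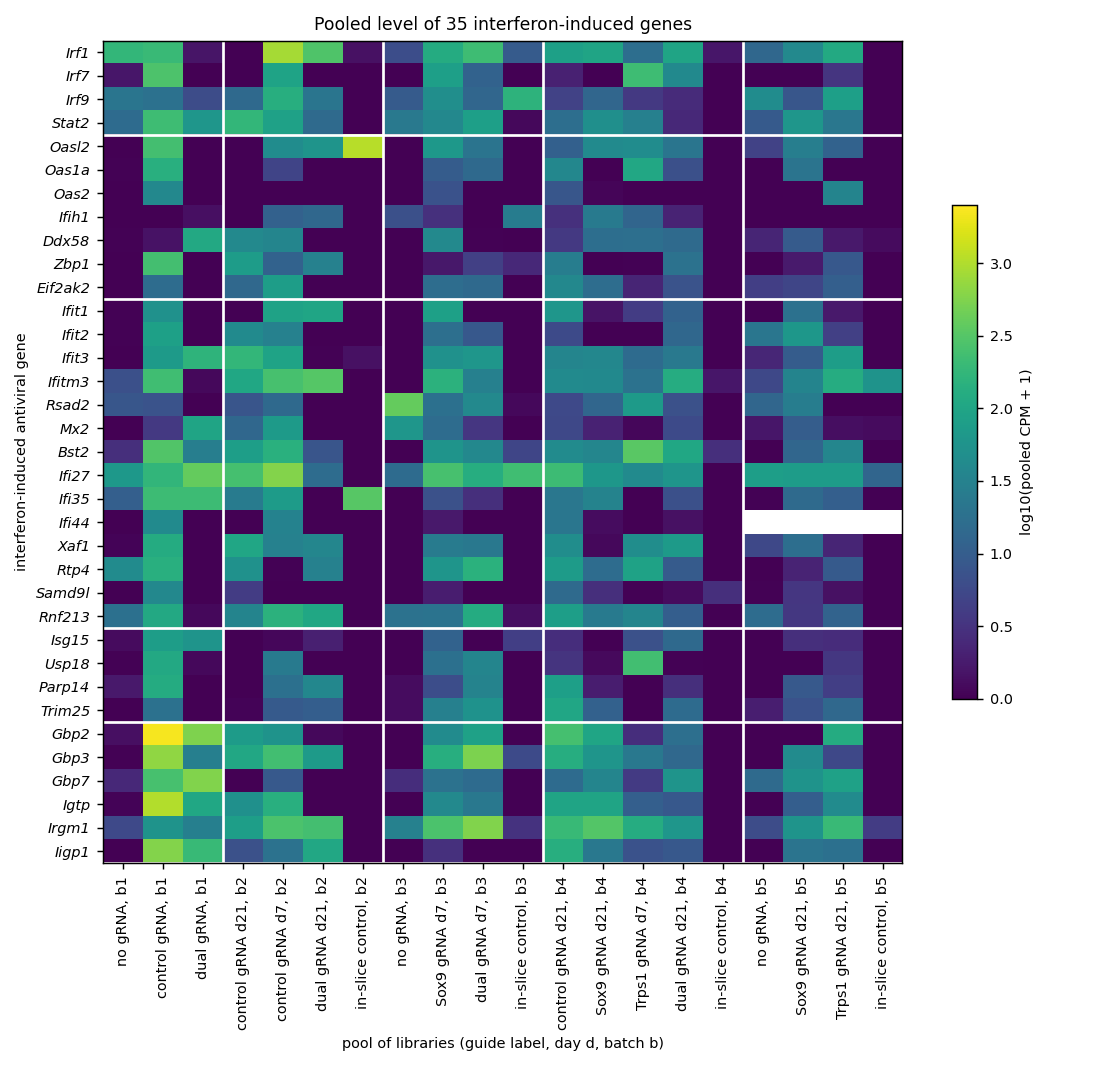
Colour gives log10 of pooled CPM + 1 for each member (rows, grouped by role from transcription factors to GTPases) in each pool (columns, with white lines between roles and between batches); Ifi44 is blank in batch 5. The control gRNA pool of batch 1 is the brightest column, with Gbp2 at 2225 CPM, and no gRNA columns are dark except for a few genes.

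Control gRNA cells against no gRNA cells of batch 1 showed the largest separation. Of the 35 members, 32 had a higher CPM in control gRNA cells, 2 a lower one and 1 no read. Of all genes with enough reads (a mean of at least 5 CPM), 55.4% were higher. Here and below, shares of all genes cover only those with enough reads. Counts of members with a higher or lower CPM cover every member with a row. Called higher were 24 of the 32 members with enough reads and called lower 0, against 19.8% of all genes called higher and 20% called lower. The median log2 ratio of those 32 was 3.93, and 0.30 over all genes with enough reads. All 6 guanylate-binding proteins and immunity-related GTPases, which attack vacuoles that shelter microbes, were called higher. Gbp2 read 0, 1296 and 7362 CPM (lowest, median, highest) in control gRNA cells and 0, 0 and 2.68 CPM in no gRNA cells, with pools at 2225 and 0.377 CPM. Reads of Gbp2 were nevertheless present in 10 of 31 no gRNA cells, at most 2.68 CPM each, so a read alone did not mark the gene's level. Igtp read 0, 438 and 3935 CPM in control gRNA cells (8 of 10 with a read) and at most 0.967 CPM in any no gRNA cell. Gbp3 stood at 691 against 0.0314 CPM and Gbp7 at 257 against 1.47 CPM. Iigp1 had no read in the 31 no gRNA cells and 588 CPM in control gRNA cells, at least 6251-fold higher. For these GTPases the high cells were a majority of the control group, and the no gRNA cells lay at or near 0. Irgm1, a regulator of the other immunity-related GTPases, differed less: 0, 52.1 and 121 CPM in control gRNA cells and 0, 0 and 40.3 CPM in no gRNA cells, with pools at 54.3 and 4.61 CPM.

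**Figure D3:**
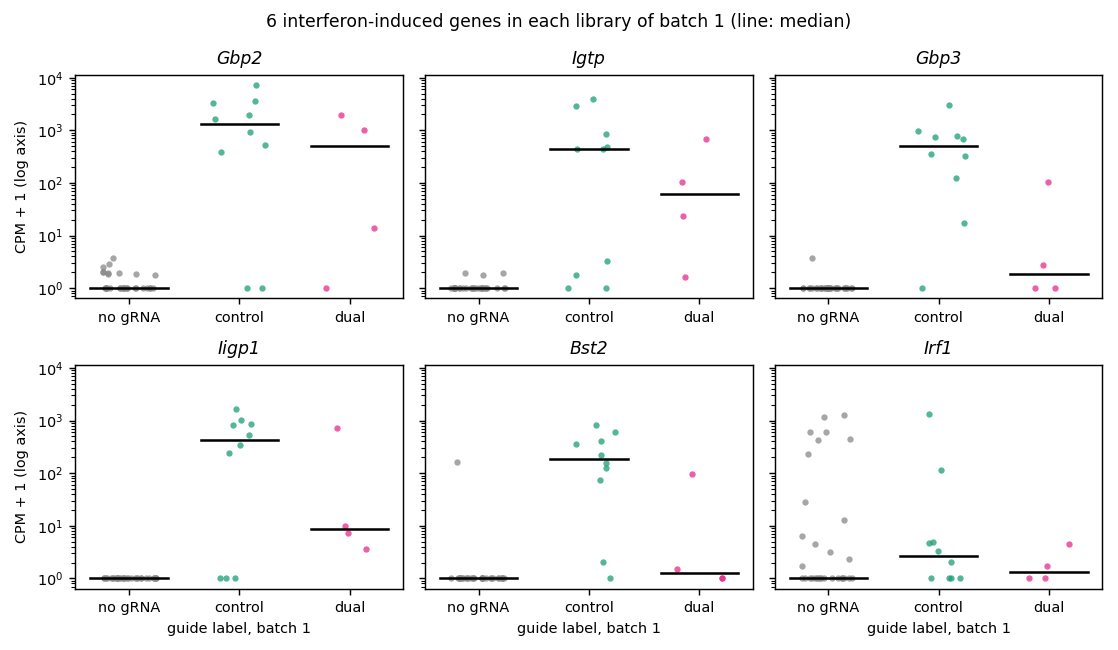
Points are single libraries of batch 1, the vertical axis is CPM + 1 on a log scale, and lines are medians in the no gRNA, control gRNA and dual gRNA groups. Gbp2, Igtp, Gbp3, Iigp1 and Bst2 lie near 0 in nearly all no gRNA cells and high in most control gRNA cells. Irf1 is high in several no gRNA cells, up to 1261 CPM, and its highest control gRNA cells read 1334 and then 114 CPM.

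Among the other roles in that comparison, 10 of 13 restriction factors and effectors, 3 of 5 sensors, 3 of 4 ISG15 and ubiquitin genes and 2 of 4 transcription factors were called higher. Bst2, which tethers budding virus to the cell, had reads in 9 of 10 control gRNA and 1 of 31 no gRNA cells, at 301 and 1.88 CPM. Ifitm3, which blocks the fusion of virus in endosomes, read 0, 242 and 450 CPM in control gRNA cells and reached 128 CPM in 1 no gRNA cell alone, with pools at 226 and 5.81 CPM. Zbp1, a sensor of Z-form nucleic acid, read 0, 55.8 and 723 CPM in control gRNA cells and had no read in 31 no gRNA cells (at least 2596-fold higher). The sensors Oasl2 (239 CPM, at least 2535-fold higher) and Oas1a (139 against 0.0314 CPM), which detect double-stranded RNA or are kin to those that do, were also called higher. Irf7, the factor that amplifies type I interferon output, stood at 280 against 0.628 CPM, with reads in 5 of 10 and 4 of 31 cells. Stat2 stood at 219 against 14.6 CPM. Usp18, which removes ISG15 and damps the type I receptor, was at 112 against 0.0314 CPM, but 76.6% of its control reads came from 1 cell. Irf1 did not separate these pools: it had 202 CPM in control and 175 CPM in no gRNA cells, with 91.3% of the control reads in 1 cell, and without the highest cells its log2 ratio turned to -2.43. Irf9 (17.3 against 19.9 CPM) and Rsad2 (6.51 against 7.06 CPM) had like pooled levels. Ifit1, Samd9l, Oas2, Trim25 and Eif2ak2 had ratios above 1 that 1 cell carried, and Mx2, Ifih1 and Ddx58 stayed under 5 CPM on average. The remaining called members were Ifit2, Ifit3, Isg15, Ifi27, Ifi35, Ifi44, Xaf1, Rtp4, Rnf213 and Parp14, at 41.0 to 213 CPM in control gRNA cells and 0 to 63.5 CPM in no gRNA cells.

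The 4 dual gRNA cells of batch 1 were compared with the same control gRNA cells, so both comparisons share that pool. The day labels of these groups (17 to 20 and 8 to 16) did not overlap, so guide and labelled day cannot be told apart. There 1 member was called higher and 18 lower of 33, against 5.14% and 34.6% of all genes. Gbp2 read 1979, 996, 13.2 and 0 CPM in the 4 cells, and Igtp 680, 101, 22.3 and 0.640 CPM. Ifi27 was the member called higher (392 against 170 CPM). Zbp1, Oasl2, Irf7, Oas1a, Rtp4, Parp14 and Xaf1 had no read in the 4 cells. Gbp7 was at 562 CPM in these cells and 257 CPM in control gRNA cells and was not called.

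In batch 5 the 23 no gRNA cells served as reference for both targeting guides. For Trps1 gRNA, 25 of 34 members had a higher CPM, 7 a lower one and 2 no read, and 63.9% of all genes were higher. Called higher were 9 of 19 members and called lower 1, against 20.7% and 9.7% of all genes. For Sox9 gRNA, 26 members were higher, 3 lower and 5 without a read, beside 52.7% of all genes. Called higher were 10 of 19 and lower 1, against 15.1% and 15.3% of all genes. The median log2 ratio of the 19 members was 2.1403 for Trps1 gRNA (all genes 0.39) and 1.79 for Sox9 gRNA (all genes 0.08).

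GTPases led with Trps1 gRNA, where 4 of 5 were called higher. Gbp2 had reads in 8 of 30 Trps1 gRNA cells (pool 122 CPM, highest cell 1509 CPM) and in none of 23 no gRNA cells, at least 716-fold higher. It also had no read in 21 Sox9 gRNA cells. Irgm1 read 0, 1.17 and 1421 CPM in Trps1 gRNA cells (17 of 30 with a read), 0, 0 and 720 CPM in Sox9 gRNA cells (6 of 21) and 0, 0 and 74.4 CPM in no gRNA cells (3 of 23), with pools at 200.2, 56.8 and 5.11 CPM. Igtp had reads in 4 of 30 Trps1 gRNA cells (42.6 CPM) and none in no gRNA cells. Gbp7 was called higher with both guides, at 86.9 CPM with Trps1 gRNA, 55.6 CPM with Sox9 gRNA and 14.2 CPM without gRNA. Gbp3 was called higher with Sox9 gRNA alone (42.6 against 0 CPM), from 2 of 21 cells. Most cells of every group had no read of Gbp2, Gbp3, Gbp7 and Igtp, and the groups overlapped at 0.

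Of the effectors, Ifitm3 had reads in 18 of 30 Trps1 gRNA cells (0, 2.27 and 755 CPM; pool 126 CPM), 4 of 21 Sox9 gRNA cells (0, 0 and 290 CPM; pool 33.3 CPM) and 2 of 23 no gRNA cells (0, 0 and 86.4 CPM; pool 4.48 CPM). It was called higher with both guides. Thinned to 200000 reads, the share of cells with an Ifitm3 read was 48.0%, 19.05% and 6.28% in the same order, and it was 20% (1 of 5) in the in-slice controls of the batch. Ifit3, which binds in complexes on viral RNA, was called higher with Trps1 gRNA (77.0 against 1.31 CPM), as was Bst2 (35.2 against 0 CPM, 5 of 30 cells). Ifit2 split the guides: 61.1 CPM with Sox9 gRNA, called higher from 2 of 21 cells, and 3.44 CPM with Trps1 gRNA, called lower than the 20.9 CPM of no gRNA cells. Ifit1, Xaf1 and Oas1a were called higher with Sox9 gRNA, each at 15.9 to 19.4 CPM from 2 or 3 cells. Irf1 was called higher with both guides, at 117 CPM (9 of 30 cells) with Trps1 gRNA, 39.5 CPM (3 of 21) with Sox9 gRNA and 12.7 CPM (3 of 23) without gRNA. Stat2 was called higher with Sox9 gRNA (60.4 against 8.12 CPM, 8 of 21 and 8 of 23 cells). Irf9 was called lower with Sox9 gRNA (7.20 against 43.5 CPM). Trim25, which adds ubiquitin to the sensor Ddx58, was called higher with Trps1 gRNA (13.2 against 0.908 CPM). Set directly against each other, Sox9 gRNA cells had 7 members called higher and 9 lower than Trps1 gRNA cells of 25, beside 8.13% and 20% of all genes. Gbp2, Irf9, Ifit3, Ifitm3, Irgm1, Igtp, Irf1, Bst2 and Rnf213 were on the lower side. The microglia and macrophage sum in this batch was 288 CPM without gRNA, 10821 CPM with Sox9 gRNA and 8116 CPM with Trps1 gRNA. With only cells under 1000 CPM kept (3 Sox9 gRNA, 11 Trps1 gRNA and 22 no gRNA cells), 0 members were called higher and 2 lower of 10 with Sox9 gRNA, where Ifitm3 turned to a log2 ratio of -0.95 and Irgm1 to -1.05. With Trps1 gRNA 6 were called higher and 0 lower of 16. Among these cells 38.4% (Sox9 gRNA) and 32.3% (Trps1 gRNA) of all genes were called in either direction.

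**Figure D4:**
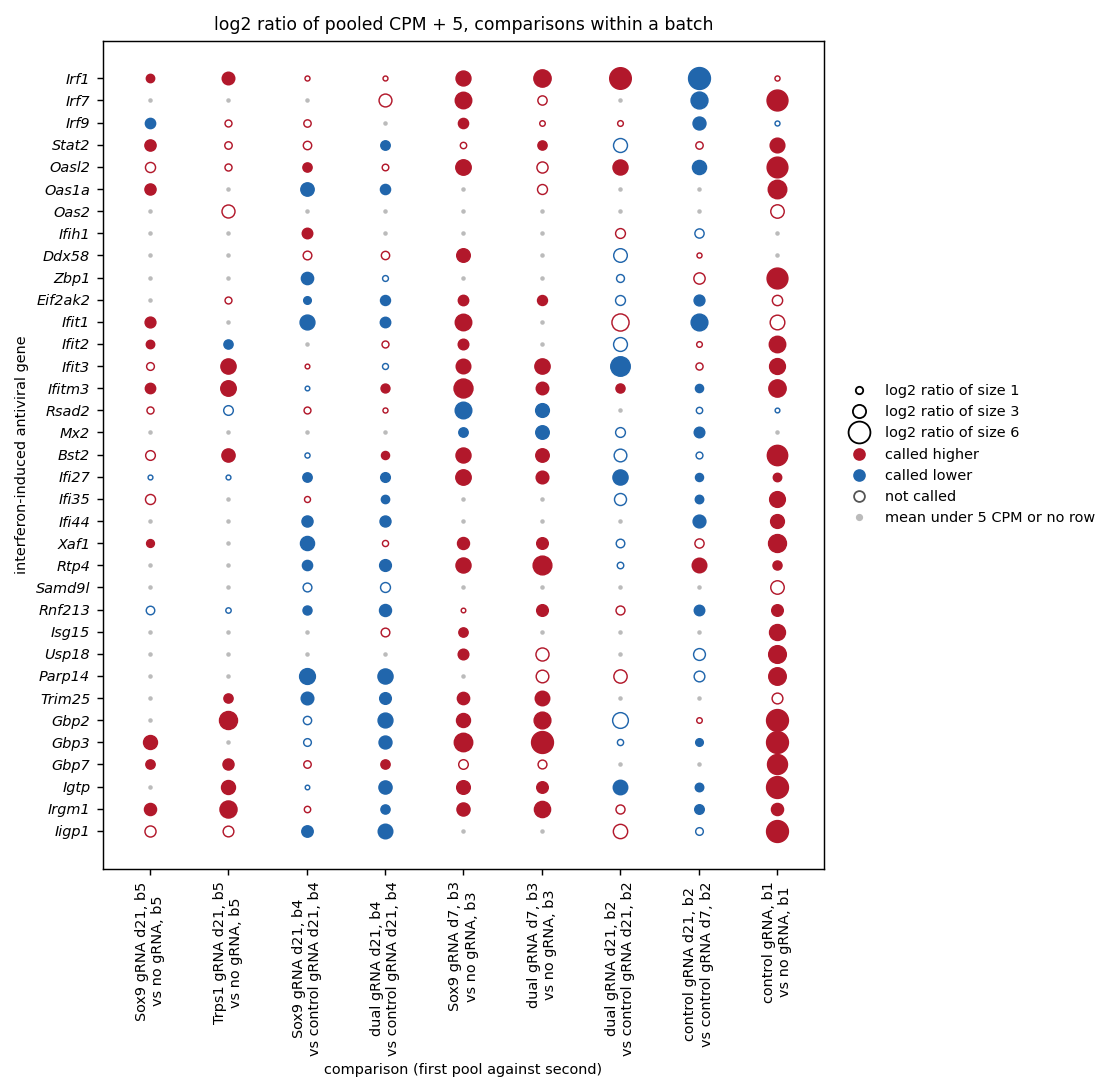
Circle diameter shows the size of the log2 ratio of pooled CPM + 5 for each member (rows) in 9 comparisons within a batch (columns), red where the first pool is higher and blue where it is lower; filled circles were called, open ones were not, and the smallest grey dots had a mean under 5 CPM or no row. Comparisons with no gRNA cells are mainly red, and day 21 against day 7 of control gRNA in batch 2 and both guides against control in batch 4 are mainly blue.

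Batch 3 compared day 7 guides with 6 no gRNA cells, of which 3 had too few reads to thin. There most genes were higher under the guides: 53.6% of all genes were called higher with Sox9 gRNA and 43.6% with dual gRNA, and 3.59% and 5.84% lower. Against that, 21 of 26 members were called higher and 2 lower with Sox9 gRNA, and 15 of 24 higher and 2 lower with dual gRNA. Over all 35 members, 32 and 26 had a higher CPM, beside 75.8% and 72.6% of all genes. The median log2 ratios of the members with enough reads were 3.04 (all genes 1.62) and 2.61 (all genes 1.602). Ifitm3 read 0, 35.7 and 872 CPM in Sox9 gRNA cells (12 of 21), reached 335 CPM in dual gRNA cells (3 of 14) and had no read in 6 no gRNA cells. Gbp3 had reads in 14 of 21 Sox9 gRNA cells (135 CPM) and 7 of 14 dual gRNA cells (528 CPM) and none in no gRNA cells. Irgm1 stood at 273 CPM with Sox9 gRNA, 577 CPM with dual gRNA and 30.6 CPM without gRNA. In the dual gRNA pool, 75.7% of the Irgm1 reads came from 1 cell at 5744 CPM. Irf1 stood at 122, 218 and 5.46 CPM in the same order, and Irf7 at 82.9, 10.6 and 0 CPM. Ifi27 read 0, 201 and 836 CPM in Sox9 gRNA cells (18 of 21), 0, 48.2 and 659 CPM in dual gRNA cells (9 of 14) and 0, 0 and 108 CPM in no gRNA cells (2 of 6).

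A pair of members went the other way in batch 3 under both guides. Rsad2 (viperin), which makes a nucleotide that stops viral RNA synthesis, stood at 392 CPM without gRNA, 16.9 CPM with Sox9 gRNA and 38.9 CPM with dual gRNA. Its no gRNA reads came from 2 of 6 cells, at 815 and 103 CPM. Mx2, a dynamin-like GTPase against viruses, stood at 59.4, 14.98 and 2.48 CPM in the same order, again from 2 of 6 no gRNA cells. Members called higher under both guides were Ifitm3, Gbp3, Gbp2, Ifi27, Rtp4, Bst2, Irf1, Ifit3, Igtp, Irgm1, Trim25, Xaf1 and Eif2ak2. With Sox9 gRNA alone these were joined by Ifit1, Ifit2, Irf7, Irf9, Oasl2, Ddx58, Usp18 and Isg15, and with dual gRNA alone by Stat2 and Rnf213. Compared directly, dual gRNA cells had 2 members called higher (Gbp3, Rnf213) and 8 lower (Ifit1, Ddx58, Irf7, Ifitm3, Isg15, Irf9, Oasl2, Mx2) than Sox9 gRNA cells, of 28, beside 9.02% and 20.8% of all genes. Among cells with microglia and macrophage markers under 1000 CPM, 5 members were called higher and 3 lower of 15 with Sox9 gRNA (6 cells), and 9 higher and 2 lower of 19 with dual gRNA (7 cells). Of all genes, 39.0% and 37.8% were called in either direction there.

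Against control gRNA cells the sign differed. In batch 4, on day 21, 13 cells with dual gRNA and 16 with Sox9 gRNA were compared with the same 15 control gRNA cells. With Sox9 gRNA 11 members had a higher and 24 a lower CPM, beside 41.3% of all genes higher, and 2 were called higher and 12 lower of 29, against 9.46% and 24.4% of all genes. With dual gRNA 12 were higher and 23 lower (41.3% of all genes higher), and 3 were called higher and 16 lower of 30, against 9.05% and 20.5%. The median log2 ratios were -1.07 (all genes -0.44) and -1.66 (all genes -0.33). By role, 6 of 12 effectors and 2 of 2 ISG15 and ubiquitin genes were called lower with Sox9 gRNA, and 5 of 6 GTPases with dual gRNA. Parp14, an ADP-ribosyltransferase, was at 82.5 CPM with control, 0.858 CPM with Sox9 and 1.91 CPM with dual gRNA, from 3, 2 and 1 cells. Trim25 was at 102, 10.3 and 14.4 CPM. Iigp1 had reads in 9 of 15 control gRNA cells (136 CPM), 4 of 16 Sox9 gRNA cells (21.9 CPM) and 2 of 13 dual gRNA cells (7.58 CPM). Rtp4 stood at 71.9, 14.7 and 8.599 CPM, Rnf213 at 80.2, 24.0 and 9.26 CPM, Ifi27 at 213, 62.9 and 58.5 CPM and Eif2ak2 (the kinase PKR, which halts translation) at 37.7, 15.3 and 6.51 CPM. Oas1a, Ifit1 and Ifi44 were called lower with both guides too. Zbp1 and Xaf1 were called lower with Sox9 gRNA alone.

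The GTPases split the guides in batch 4. Gbp2 read 0, 0 and 1851 CPM in control gRNA cells (4 of 15), 0, 0 and 570 CPM in Sox9 gRNA cells (5 of 16) and 0, 0 and 70.0 CPM in dual gRNA cells (4 of 13), with pools at 249, 98.2 and 16.4 CPM. Irgm1 stood at 194 CPM in control gRNA (10 of 15 cells), 306 CPM in Sox9 gRNA (7 of 16) and 60.0 CPM in dual gRNA cells (6 of 13), and Igtp at 96.0, 95.1 and 7.76 CPM. Both, with Gbp2, Gbp3, Iigp1, Stat2 and Ifi35, were called lower than control with dual gRNA. Called higher were Ifih1 (24.3 against 1.98 CPM) and Oasl2 (41.8 against 10.1 CPM) with Sox9 gRNA, and Gbp7 (56.1 against 14.6 CPM), Ifitm3 (127 against 41.0 CPM) and Bst2 (106 against 42.2 CPM) with dual gRNA. Sox9 gRNA against dual gRNA cells had 7 members called higher and 3 lower of 28, beside 14.4% and 19% of all genes. Microglia and macrophage markers summed to 13614 CPM in control, 6439 CPM in Sox9 and 14244 CPM in dual gRNA cells. With only cells under 1000 CPM kept (3 Sox9 and 2 control gRNA cells), 0 of 11 members were called with Sox9 gRNA, beside 13.2% of all genes. Ifi27 turned to a log2 ratio of 5.09. Astrocyte markers were lowest in the dual gRNA pool (2353 CPM), and without cells under 1000 CPM of them, none of the 3 higher calls was left and 18 of 27 members were called lower: Gbp7 turned to -1.05 and Bst2 to -0.02, and Ifitm3 stood at 1.33 and was no longer called. Of all genes, 30.5% were called in either direction there. Trps1 gRNA cells of day 7 had no reference of that day in the batch and were compared with none. In them Bst2 stood at 340 CPM (6 of 15 cells), Usp18 at 233 CPM (3), Irf7 at 222 CPM (4), Irgm1 at 127 CPM (7) and Oas1a at 109 CPM (2).

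In batch 2 time was compared within control gRNA cells. On day 21, 9 members had a higher and 25 a lower CPM than on day 7, beside 46.3% of all genes higher, and 1 was called higher and 15 lower of 29, against 10.3% and 24.2% of all genes. The median log2 ratio was -1.36 (all genes -0.24). Irf1 read 4093, 1404, 1203, 988, 355 and 8.18 CPM in 6 of 8 day 7 cells and 0 in the other 2, and it had no read in any of 7 day 21 cells. The pools stood at 876 CPM on day 7 and 0 on day 21, where 3 counts would be 0.201 CPM. Irf7 and Irf9 were also called lower, from 92.2 and 135 CPM on day 7 to 0 and 13.6 CPM on day 21. Ifi27 read 139, 552 and 1858 CPM on day 7, in all 8 cells, and 0, 121 and 974 CPM on day 21, in 5 of 7. Ifitm3 read 0, 89.5 and 693 CPM on day 7 and 0, 0 and 308 CPM on day 21, Irgm1 0, 58.9 and 986 CPM and 0, 0.446 and 582 CPM, and Igtp 0, 0.198 and 790 CPM and 0, 0 and 214 CPM. Some day 7 cells lay above every day 21 cell for each of these genes, and the rest overlapped with them. Gbp3, Ifi35, Rnf213, Mx2, Eif2ak2, Ifi44, Oasl2 and Ifit1 were called lower, and Rtp4 higher (51.4 against 0.055 CPM, from 2 cells and 1). The 8 dual gRNA cells of day 21 were set against the 7 control gRNA cells of day 21. There 12 members were higher and 17 lower (44.3% of all genes higher), and 3 were called each way of 25, against 12.9% of all genes higher and 15.9% lower. Irf1 was called higher (294 CPM from 4 of 8 cells, against 0 of 7), with Oasl2 (57.3 against 0 CPM) and Ifitm3 (322 against 104 CPM). The in-slice library of the batch, with no cell, held Oasl2 at 1088 CPM. Igtp, Ifi27 and Ifit3 were called lower, at 0, 14.9 and 0.0483 CPM against 49.5, 249 and 178 CPM.

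Across the 9 comparisons Ifitm3 was called most often, 7 times higher and 1 time lower. Of the higher calls, 1 was lost without cells low in astrocyte markers (dual gRNA, batch 4). Another turned to a log2 ratio of -0.95 among cells with microglial markers under 1000 CPM (Sox9 gRNA, batch 5). Ifi27 was called higher 3 times and lower 4 times, the only one of the 4 most called with more lower calls. Irgm1 was called higher 5 times and lower 2 times, Igtp 4 and 3 times, Irf1 5 and 1 times, and Gbp3 4 and 2 times. Bst2 (5 times) and Gbp7 (4 times) were called higher and not lower. Rsad2 and Mx2 were called lower 2 and 3 times and not higher. Oas2 and Samd9l were not called at all. These 9 share pools, so the counts are not independent.

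Markers of microglia and macrophages stood beside these values in every batch. Summed over 18 markers, single cells ran from 0 to 3605 CPM in no gRNA cells of batch 1 and from 28.2 to 32152 CPM in control gRNA cells there. Ptprc was at 0 in the no gRNA pools of all 3 batches, and in batch 3 (6 cells) so were Cx3cr1, Tmem119, C1qb, C1qc, Trem2, Itgam, Lyz2 and Cd68. In the no gRNA pools of batches 1 and 5 the other 17 markers had reads. Ptprc was also at 0 in dual gRNA cells of batch 1, with Itgam, Mrc1 and Cd68. It was at 0 in Trps1 gRNA cells of day 7 and in in-slice controls of batches 4 and 5 too. None of the 18 was at 0 in control gRNA cells of batch 1, both guides of batch 3, the day 21 astrocyte pools of batch 4 or Trps1 gRNA cells of batch 5. Mrc1 alone was at 0 in the astrocyte pools of batch 2 and in Sox9 gRNA cells of batch 5. Some cells had many member reads and few marker reads. In batch 1, control gRNA cells 6 and 9 had 25 and 22 members and summed member levels of 3508 and 6041 CPM, with markers at 399.5 and 207 CPM. Dual gRNA cells 2 and 3 had member sums of 3030 and 1685 CPM with markers at 35.9 and 2.124 CPM. The reverse was also seen: the in-slice library with the highest markers (73941 CPM, batch 3) had reads of 6 members, summing to 715 CPM. Within groups the rank correlation of both sums ran from -0.56 (dual gRNA, batch 3, 14 cells) to 0.71 (control gRNA, batch 1, 10 cells), as a description, since both sums come from the same library. When only cells with markers under 1000 CPM were kept, a choice made after seeing the data, 4 control gRNA cells of batch 1 against 26 no gRNA cells had 12 members called higher and 1 lower of 26, in place of 24 and 0 of 32, and Rtp4 turned to a log2 ratio of -0.24. Of all genes, 33.8% were called in either direction there. Oligodendrocyte markers (10 genes) also moved with some labels: they summed to 6737 CPM with Sox9 gRNA, 1083 CPM with dual gRNA and 582 CPM without gRNA in batch 3, where 5 of the 10 were at 0 without gRNA, and to 4859, 2771 and 2429 CPM with Sox9, Trps1 and no gRNA in batch 5. In batch 4 they summed to 3539 CPM with control, 395 CPM with Sox9 and 1133 CPM with dual gRNA. T and NK cell markers summed to at most 341 CPM in any pool (control gRNA, day 21, batch 2). Of these 11 markers only 1 had a row in batch 3, 6 in batch 5 and 7 in batch 2, so the sums are not alike between batches. The highest Trps1 gRNA cell of batch 5 reached 6020 CPM of them. Hemoglobin and other erythroid genes summed to 9715 CPM in Sox9 gRNA cells of batch 4. Their part was not tested.

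**Figure D5:**
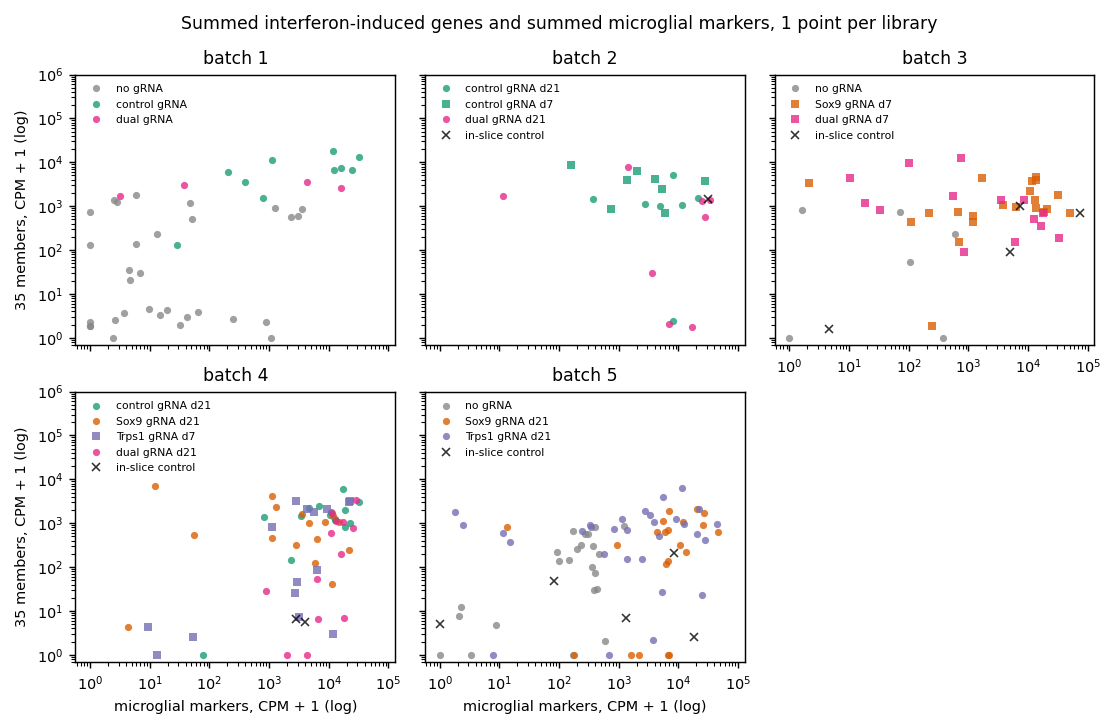
Each point is 1 library, with summed microglia and macrophage markers (CPM + 1) on the horizontal and the summed 35 members (CPM + 1) on the vertical axis, both logarithmic, and crosses for in-slice controls. No gRNA cells lie mainly to the left, with member sums from 0 to 1769 CPM in batch 1, cells with a guide label lie mostly to the right, and a few of these, such as dual gRNA cells 2 and 3 of batch 1, combine low markers with high members.

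Genes around the members were counted from lists of the pathway. Of 10 interferon ligands, all had a row in batch 1 and no read there. In batch 4 only Ifnb1 and Ifna2 had a row and in batch 5 only Ifnk, so the others, Ifng among them, were measured in batch 1 alone. Ifna2 stood at 126 CPM in 1 control gRNA cell of batch 4 (131 reads, 7.20 CPM in the pool), Ifnb1 at 3.11 CPM in 1 cell of that group, and Ifnk at 2.38 CPM in 1 Trps1 gRNA cell of batch 5. Of 13 receptor and signalling genes, 5 were called higher and 1 lower in control gRNA against no gRNA cells of batch 1, beside 19.8% and 20% of all genes. In batch 5, 8 were called higher and 0 lower with Sox9 gRNA (15.1% and 15.3% of all genes), and 6 and 1 with Trps1 gRNA (20.7% and 9.7%). In batch 3, 10 and 9 were called higher with Sox9 and dual gRNA and 0 lower, beside 53.6% and 43.6% of all genes higher. In batch 4, 5 of 13 were called lower with Sox9 gRNA and 6 lower and 1 higher of 11 with dual gRNA, beside 24.4% and 20.5% of all genes lower. In batch 2, 7 of 13 were called lower and 2 higher on day 21 against day 7 of control gRNA (24.2% and 10.3% of all genes), and 4 higher and 1 lower of 12 with dual against control gRNA (12.9% and 15.9%). Of other interferon-induced genes, 21 were called higher and 1 lower of 27 in batch 1 (19.8% and 20% of all genes), among them Cxcl10, a chemokine (1275 against 3.17 CPM, in 10 of 10 and 5 of 31 cells), Psmb8 of the immunoproteasome (1006 against 16.3 CPM) and the peptide transporter Tap1 (338 against 0 CPM). Trim21 was the 1 called lower (0 against 36.3 CPM). In batch 5 the counts were 7 higher and 1 lower of 15 with Sox9 gRNA and 8 and 0 of 18 with Trps1 gRNA, and in batch 4 they were 1 and 11 of 28 with Sox9 gRNA and 3 and 11 of 27 with dual gRNA, to be read against the same shares of all genes. In batch 3 they were 16 and 0 of 20 and 6 and 0 of 19 with Sox9 and dual gRNA, beside 53.6% and 43.6% of all genes higher, the second below its share. In batch 2 they were 1 and 11 of 26 for day 21 against day 7 (10.3% and 24.2% of all genes). For dual against control gRNA they were 3 and 1 of 20 (12.9% and 15.9%). The nucleic acid sensing adaptors and Toll-like receptors were mixed in batch 1, with 2 called higher (Unc93b1, Tmem173) and 3 lower (Tlr3, Tbk1, Ikbke) of 8, beside 19.8% and 20% of all genes. In batch 5, 3 and 5 of 8 were called higher with Sox9 and Trps1 gRNA and 0 lower, beside 15.1% and 20.7% of all genes higher. In batch 3, 6 were called higher and 2 lower of 10 with Sox9 gRNA and 2 each way of 8 with dual gRNA. The shares of all genes there were 53.6% and 43.6% higher, and 3.59% and 5.84% lower. In batch 4, 1 was called higher and 3 lower of 8 with Sox9 gRNA, and 0 and 5 of 9 with dual gRNA. Beside these, 24.4% and 20.5% of all genes were called lower. In batch 2, 1 was called each way of 7 with dual gRNA (12.9% and 15.9% of all genes). On day 21 against day 7, 1 was called higher and 3 lower of 5 (10.3% and 24.2%). Unc93b1, the carrier of endosomal Toll-like receptors and a gene that microglia also express, was called higher in batch 1 (587 against 0.126 CPM) and in batch 5 with both guides. In batch 2 it was called higher with dual against control gRNA (423 against 21.0 CPM) and lower on day 21 against day 7 (21.0 against 85.0 CPM). Tlr3, the sensor of double-stranded RNA, was called lower in control gRNA cells of batch 1 (9.32 against 73.9 CPM) and under both guides of batch 3 (5.36 and 4.44 against 91.3 CPM), and higher with Sox9 gRNA in batch 4 (62.0 against 8.25 CPM). In batch 2 Tlr3 was called lower with dual against control gRNA (0 against 58.7 CPM) and higher on day 21 against day 7 (58.7 against 21.9 CPM).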

How the data were processed

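Per the labels, single astrocytes and in-slice controls were sequenced by Smart-seq2. The authors deposited raw counts of reads per gene and library, whole numbers in 1 table per batch. Per the submitters' processing notes, the builds GRCm38 and mm10 and the tools RSEM 1.3.0 and STAR 2.6.0a were involved, in a role and order not given. Of 289 labelled samples, 254 had a column, and 35 of batch 4 were not analysed here. No 2 libraries were identical. Rows that name no gene held 75.6% of counts in batch 1, 22.3% in batch 2 and under 1% elsewhere (0.00115% to 0.379%) and were left out.

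Counts were summed per group and batch and given as CPM. Intervals computed beside them (exact Poisson for CPM, Clopper-Pearson for shares, 95%) cover counting error only, since reads without identifiers are not independent molecules. They are narrow beside the spread between cells, so the text gives that spread. Calls, pseudocount (5 CPM), minimum (5 CPM) and the limit of 3 counts are as in the text. No test was run, because the labels name no animal. All members are accounted for, and per-cell values were to be given for those called most often and for those with the highest pooled CPM of their role, a choice by CPM not scaled for length. Other per-cell values, such as those of Rsad2, were chosen after they were seen. The members and lists were chosen with earlier results of these data known. Scaling by edgeR's TMM factors moved log2 ratios by -0.64 to 0.84, by over 0.1 in 8 of 9 comparisons. Python 3.11.15, numpy 2.4.6, pandas 2.3.3, scipy 1.17.1, matplotlib 3.10.9, R 4.3.3 and edgeR 4.0.16 were used. Results for 1 gene of the signalling list are not reported here.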

Additional observations from a re-analysis of the deposited data

Results flagged for a closer look

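The summed CPM of the members stood apart in 1 library of 3 groups, by the gap to its nearest neighbour, in 16 such looks at groups of 4 to 10 libraries, and chance flags about 1 in 20. These were a control gRNA cell of day 21 in batch 2 (5177 CPM), a dual gRNA cell of day 21 in batch 2 (7674 CPM) and an in-slice control of batch 5 (213 CPM). In-slice controls exceeded every astrocyte pool of their batch for 4 members. In batch 2 the single in-slice library held Oasl2 at 1088 CPM and Ifi35 at 331 CPM. In batch 3 the pooled in-slice libraries held Irf9 at 158 CPM and Ifih1 at 25.6 CPM.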

How the results depend on the processing

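Counts below are members called in either direction. The share of all genes called changed with the setting too, as from 30.3% to 12.4% for Sox9 gRNA in batch 5 with the mean over cells. A pseudocount of 1 CPM, no minimum level and TMM factors left all 9 counts within 1.5 times. Taking the mean over cells of log2(CPM + 5) gave 0 in place of 11 for Sox9 gRNA and 4 in place of 10 for Trps1 gRNA (batch 5), 3 in place of 14 and 5 in place of 19 for Sox9 and dual gRNA (batch 4), and 11 in place of 23 and 7 in place of 17 for Sox9 and dual gRNA (batch 3), with Gbp7 at -0.055 for dual gRNA in batch 4. Calling from all cells alone gave 17 for Sox9 gRNA in batch 5 and 22 in place of 6 for dual gRNA in batch 2. A log2 ratio of 2 gave 2 for Sox9 gRNA in batch 5, 3 and 6 for Sox9 and dual gRNA in batch 4, 14 for Sox9 gRNA in batch 3 and 8 in place of 16 for day 21 against day 7 in batch 2. Cells of 1 title series alone gave 3 (21T, Trps1 gRNA, with Ifit3 at -0.33 and Gbp7 at -0.999), 12 (7S2, Sox9 gRNA), 11 (7ST) and 10 (7ST2, dual gRNA), and Trim25 was at -0.19 in series 21T3. Microglial markers under 100 CPM gave 2 for Trps1 gRNA in batch 5 and 3 for dual gRNA in batch 3, with Irgm1 at -2.69, Rnf213 at -2.37 and Trim25 at -0.0066, and left too few cells in the other 7 comparisons. The limit of 1000 CPM and the astrocyte minimum were chosen after seeing the data. The limit gave 2 and 6 for Sox9 and Trps1 gRNA in batch 5 (Ifit2 -2.43, Ifitm3 -0.95, Xaf1 -0.95, Stat2 -0.62, Irgm1 -1.05 for Sox9 gRNA), 0 for Sox9 gRNA in batch 4 (Ifi27 5.09, Trim25 3.98, Eif2ak2 4.19), 8 and 11 for Sox9 and dual gRNA in batch 3, and 13 in place of 24 in batch 1 (Rtp4 -0.24), and left too few cells in the other 3. The astrocyte minimum moved Gbp7 to -1.05 and Bst2 to -0.018 for dual gRNA in batch 4. The cause of these changes was not tested, beyond the smaller number of cells. No paired analysis was possible because the labels name no animal and no test was run. In batch 3, 3 of 6 no gRNA cells had under 100000 reads.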
